A study of Mus musculus with 8 samples.

Results

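CpG-sparse sites with low methylation are CpGs that stand in CpG-poor sequence and yet carried little methylation in mouse hepatocytes. They were chosen by measured values. A CpG was tested if at least 5 bisulfite reads covered it in every mouse, both strands together, on chromosomes 1 to 19. It was sparse if at most 4 other CpGs with a read in any mouse lay within 100 bases, and it was a member if its methylation, averaged over the 8 mice, was under 20%. Of 874644 tested CpGs, 317171 were sparse and 31860 were members, which was 3.64% of all tested CpGs and 10% of the sparse ones. The hepatocytes came by liver perfusion from female C57Bl6/J mice that all received the control diet, 4 mid-aged mice of 40 weeks and 4 young mice of 10 weeks. DNA was cut with MspI at CCGG and the fragments were bisulfite sequenced (RRBS, reduced representation bisulfite sequencing), so only CpGs near a CCGG were read, and every mouse gave a mixture of cells. At a site with 10% methylated reads, a methylated allele in a part of the hepatocytes and a contribution of other liver cells cannot be told apart, nor can 5-methylcytosine and 5-hydroxymethylcytosine.

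Most CpGs of a mammalian genome lie scattered in CpG-poor DNA and are methylated. CpG islands, which cover many promoters, are the best known exception. Single CpGs outside islands lose methylation where proteins occupy the DNA, at enhancers and at CpG-poor promoters, and such low-methylated regions are usually specific to a cell type. In hepatocytes they include control elements of plasma protein, metabolic and liver transcription factor genes, bound by factors such as HNF4A, FOXA and C/EBP.

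A few of the sites are shown here because the results below turn on them. The letters are the forward strand of GRCm38.p6, the assembly of mm10, and the CpGs in capitals are members, while a cg in lower case is another CpG. The distal stretch between genes near *Gm45252* held 8 members without a promoter nearby.

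Gm45252 distal stretch, chr8:31033301-31033531: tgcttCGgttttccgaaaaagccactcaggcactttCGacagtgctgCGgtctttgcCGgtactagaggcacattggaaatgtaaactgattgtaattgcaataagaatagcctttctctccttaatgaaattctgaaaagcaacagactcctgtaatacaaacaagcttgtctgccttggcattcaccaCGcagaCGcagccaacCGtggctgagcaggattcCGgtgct

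*Foxa1*, a pioneer factor of the endoderm, *Cry2*, a repressor of the circadian clock, and *Hpd*, an enzyme of tyrosine breakdown, had members in the window around their start sites. *Kdr*, a receptor of vascular endothelial growth factor, is shown as a gene of another liver cell type.

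Foxa1 promoter window, chr12:57546894-57547085: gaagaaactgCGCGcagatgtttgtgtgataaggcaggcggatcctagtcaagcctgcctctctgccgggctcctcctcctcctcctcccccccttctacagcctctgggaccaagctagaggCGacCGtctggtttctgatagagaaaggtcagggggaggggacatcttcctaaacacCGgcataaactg

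Cry2 promoter window, chr2:92433206-92433369: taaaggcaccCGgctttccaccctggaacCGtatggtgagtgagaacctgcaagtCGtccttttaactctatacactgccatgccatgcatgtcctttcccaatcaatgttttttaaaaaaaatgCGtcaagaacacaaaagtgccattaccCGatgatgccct

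Hpd promoter window, chr5:123182968-123183065: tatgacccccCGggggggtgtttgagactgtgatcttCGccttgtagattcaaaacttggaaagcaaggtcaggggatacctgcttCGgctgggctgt

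Kdr promoter window, chr5:75979174-75979249: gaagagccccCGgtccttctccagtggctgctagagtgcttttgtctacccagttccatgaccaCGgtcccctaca

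The next sites are single members that differed between mid-aged and young mice.

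Akt1 intron, chr12:112670768-112670869: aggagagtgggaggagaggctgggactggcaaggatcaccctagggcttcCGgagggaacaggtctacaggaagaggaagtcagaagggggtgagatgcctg

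Acin1 intron, chr14:54685360-54685461: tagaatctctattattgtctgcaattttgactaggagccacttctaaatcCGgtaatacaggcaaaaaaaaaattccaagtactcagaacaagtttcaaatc

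Lncppara intron, chr15:85673651-85673752: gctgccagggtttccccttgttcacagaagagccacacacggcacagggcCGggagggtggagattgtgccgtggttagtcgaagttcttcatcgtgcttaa

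Gpam downstream site, chr19:55061085-55061186: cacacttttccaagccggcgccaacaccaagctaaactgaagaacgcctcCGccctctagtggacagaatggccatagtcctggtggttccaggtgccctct

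Cdk2ap1 promoter window, chr5:124352570-124352671: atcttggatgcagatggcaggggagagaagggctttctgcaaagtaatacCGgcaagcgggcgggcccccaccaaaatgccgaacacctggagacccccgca

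The libraries held between 45066297 reads over CpGs (young 1) and 115308450 (mid-aged 4), and every mid-aged library held more reads in total than every young one. At the members depth did not separate the ages. A member was covered by a median of 419 reads over the 8 mice, and the median in single libraries was 27, 71, 64 and 61 reads in mid-aged 1 to 4 and 34, 45, 48 and 56 in young 1 to 4. Intervals given for single mice are 95% Wilson intervals, and they cover counting error only, since PCR copies are not independent molecules.

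The members had a median methylation of 6.82%, with quartiles at 2.86% and 12.3%, values that the choice of members bounds. Under 5% lay 12456 of them (39.1%). At 844 members no methylated read was seen in any mouse, and at their median of 227 reads a count of 0 allows a methylation of up to 1.32%. The threshold of 20% cut through a continuous range. Between 15% and 20% there were 4690 members, and between 20% and 25% there were 3562 sparse CpGs that were left out. Among CpGs with at least 20 reads in every mouse, just inside it lay CpGs in introns of *Mbp* (19.9982%), *Mcf2l* (19.9973%) and *Rgs12* (19.9968%), and just outside it CpGs in introns of *Prickle2* (20.0132%) and *Fam83f* (20.0188%).

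The members were not evenly spread over the genome. Promoter windows reached 1500 bases ahead of a start site and 500 bases into the gene. They held 13517 members (42.4%), against 11.2% of the 216201 sparse CpGs with at least 80% methylation and 47% of all tested CpGs. Introns held 9841 members (30.9%), sequence between genes 6598 (20.7%), UTRs and non-coding exons 1262 (3.96%) and coding exons 642 (2.02%). Among the highly methylated sparse CpGs, coding exons held 6.66%, introns 42.8% and sequence between genes 34.8%. Repeats overlapped 5.69% of members and 16.8% of highly methylated sparse CpGs. With 500 bases to either side of a start as the window, 31.9% of members were in promoters, and with protein-coding genes only, 36.4%.

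Low methylation at sparse CpGs was rarer far from start sites. Within 249 bases of a start, 31.4% of sparse CpGs were members, between 250 and 500 bases 33.8%, between 1000 and 2000 bases 12.4%, and beyond 100000 bases 1.76%. Distance to a CpG of dense sequence (at least 10 neighbours) that was itself under 20% methylated separated the sparse CpGs more steeply. Such a CpG was chosen by the same mean and the same limit of 20% as the members, and close CpGs can share reads and fragments. The steeper fall is therefore partly set by the choice. Within 100 bases of such a CpG 1219 of 1331 sparse CpGs (91.6%) were members, between 500 and 1000 bases 42.1%, between 1000 and 2000 bases 19.3% and beyond 50000 bases 4.24%. In all, 15531 members (48.7%) lay within 2000 bases of a dense, low CpG, that is in or beside a CpG island. The number of neighbours moved with membership as well, from 4.63% of sparse CpGs with no neighbour to 16% of those with 4. Some windows were sparse only in the reads, since around 9486 members (29.8%) the reference holds more than 4 other CpGs within 100 bases.

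**Figure D1:**
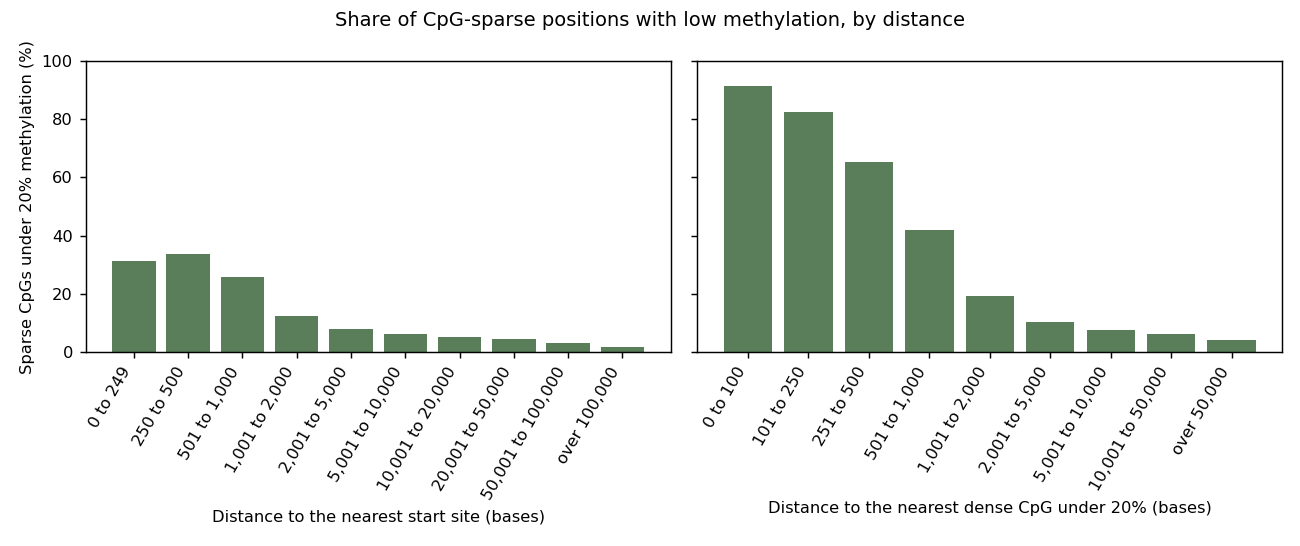
Share of sparse CpGs that were members (bars, in percent) by distance in bases to the nearest start site (left) and to the nearest dense CpG under 20% methylation (right). On the left the share is 31.4% nearest a start, 33.8% in the next bin and 1.76% in the farthest, and on the right it falls from 91.6% to 4.24%.

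A separate group of 8233 members (25.8%) lay more than 5000 bases from any start and more than 2000 bases from a dense, low CpG. Other tested CpGs within 25 bases of these distal members had a mean methylation of 13.4%. The mean was 21.5% between 50 and 100 bases away, 36.1% between 200 and 400 bases, 58.6% between 700 and 1000 bases and 70.5% between 1500 and 2000 bases. Around promoter members the surrounding CpGs stayed low, at 6.68% within 25 bases and 14.1% between 1500 and 2000 bases. The choice of distal members kept dense, low CpGs out of their surroundings up to 2000 bases, and promoter members had no such limit, so the difference between these profiles is partly set by the choice. Neighbours shared reads and fragments, so these means describe the regions and are not independent measurements.

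**Figure D2:**
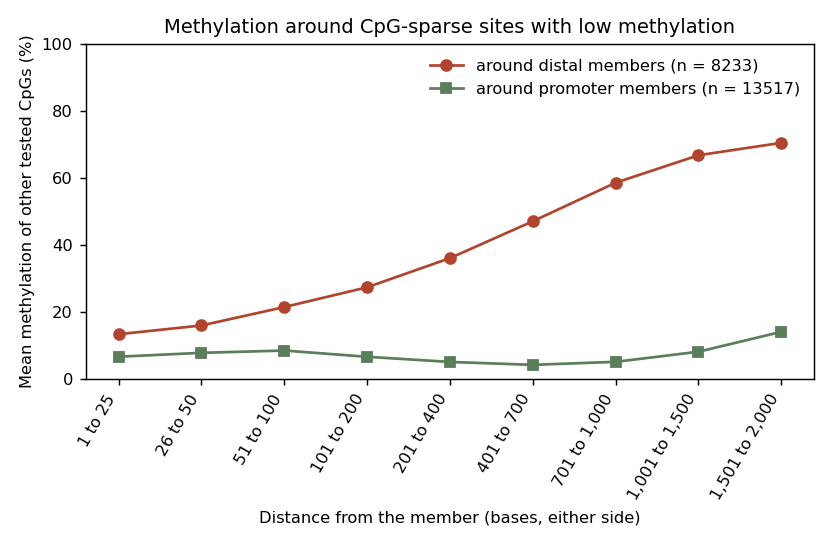
Mean methylation (percent) of other tested CpGs by distance in bases from a member, for 8233 distal members (circles) and 13517 promoter members (squares). Around distal members it climbs from 13.4% to 70.5%, around promoter members it runs from 6.68% to 14.1%.

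The members grouped into 16033 loci when neighbours at most 200 bases apart were joined. Of these, 7707 held a single member, 832 held 5 or more, and the fullest held 13. All members were in promoter windows at 6569 loci, and at 4920 loci all were more than 5000 bases from a start. The promoter locus with most members was at *Gtf2ird1*, a transcription factor gene, with 12 members in 652 bases around the start and a mean methylation of 1.98% ± 0.627 (SD, n = 4) in the mid-aged mice and 1.68% ± 0.601 in the young mice. *Ppp6r2*, a regulatory subunit of protein phosphatase, had 11 members whose mean was between 2.23% and 2.94% in the mid-aged mice and between 3.88% and 4.55% in the young mice. The groups did not overlap there, although no member of the locus passed the test described below (lowest adjusted p = 0.088 in the quasi-binomial model).

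*A1cf*, which encodes the cofactor of apolipoprotein B mRNA editing in liver, had 10 members in 426 bases at its start (chr19:31868577-31869002). The mid-aged mice had 13.8%, 11%, 13.1% and 21.8% and the young mice 15.6%, 11.2%, 12.9% and 13.9%, so that the groups overlapped. No other CpG was tested within 2000 bases of it. *Esrrg*, an orphan nuclear receptor of energy metabolism, had 9 members in 292 bases (5.44% ± 2.32 in mid-aged, 6.66% ± 1.07 in young mice). *Bdnf*, a gene known for its part in neurons, also had 9 (3.85% ± 0.388 and 3.09% ± 1.09), as did *Trappc11* and *Adam33*.

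Of the distal loci, the one near *Hnrnpa0* had most members, 11 in 451 bases starting 5352 bases from the gene's start, with levels from 10.2% to 15.7% in the mid-aged mice and from 7.98% to 14.3% in the young mice. The stretch near *Gm45252* printed above lay 29398 bases from that start, and its 8 members ranged from 0.24% to 16.6%. Its mean was 5.72%, 2.85%, 2.49% and 6.44% in the mid-aged mice and 10.1%, 4.46%, 7.34% and 4.18% in the young mice, which overlap. The locus near *Zfp362* was low (2.68% ± 0.791 and 2.16% ± 0.792) amid methylated DNA, since all 6 other CpGs tested within 2000 bases were at 80% or more. Loci near the homeobox genes *Tlx3* and *Gbx2*, which pattern the nervous system, had 8 members each, at 6.19% ± 1.9 and 14.3% ± 3.36 in the mid-aged group and 5.54% ± 2.02 and 8.84% ± 2.28 in the young group, with overlap at both. Loci near *4930573C15Rik*, *AC127690.1* and *4930515B02Rik* had 10, 9 and 8 members. None of the members of the loci named here passed the test for age, the lowest adjusted p being the 0.088 at *Ppp6r2*.

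Sparse CpGs in promoter windows were counted by gene list, for hepatocytes and for other cells. Over all promoter windows, 27.8% of 48616 sparse CpGs were members and the median methylation was 79.6%. In the windows of liver transcription factor genes, 97 of 150 sparse CpGs (64.7%) were members, with a median of 11.1%. For plasma protein genes it was 71 of 118 (60.2%, median 15.3%), for circadian clock genes 50 of 81 (61.7%, median 8.03%) and for hepatocyte enzyme genes 79 of 183 (43.2%, median 32.8%). Gene lists of other cells had lower shares, 11 of 83 (13.3%, median 82.1%) for leukocytes and Kupffer cells, 13 of 67 (19.4%) for stellate cells, 28 of 99 (28.3%) for cholangiocytes, 29 of 95 (30.5%) for endothelial cells and 18 of 160 (11.2%, median 82.1%) for other tissues. The shares cover only genes with a tested sparse CpG in the window. These were 35 of 108 plasma protein, 40 of 102 enzyme, 30 of 41 transcription factor and 12 of 20 clock genes. For other cells they were 21 of 50 leukocyte, 15 of 29 stellate, 13 of 25 cholangiocyte, 23 of 37 endothelial and 36 of 80 other tissue genes. The lists also differed in dense promoters. A dense tested CpG was in the window of 5 of 108 plasma protein, 30 of 102 enzyme, 32 of 41 transcription factor and 19 of 20 clock genes. For other cells it was 7 of 50 leukocyte, 12 of 29 stellate, 13 of 25 cholangiocyte, 17 of 37 endothelial and 16 of 80 other tissue genes, and the part of dense promoters in the shares was not tested. The quasi-binomial test for age and limma each called 0 members in the windows of these lists. From 0 to 9 members of a list had an unadjusted p under 0.05 in the quasi-binomial model. Over all tested CpGs, 0.166% were called by that model and 9.14% had such a p. With only 11 to 97 members per list, these counts cannot set a list apart from that background. The CpGs of a list share genes and fragments, and the shares are descriptions without a test.

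**Figure D3:**
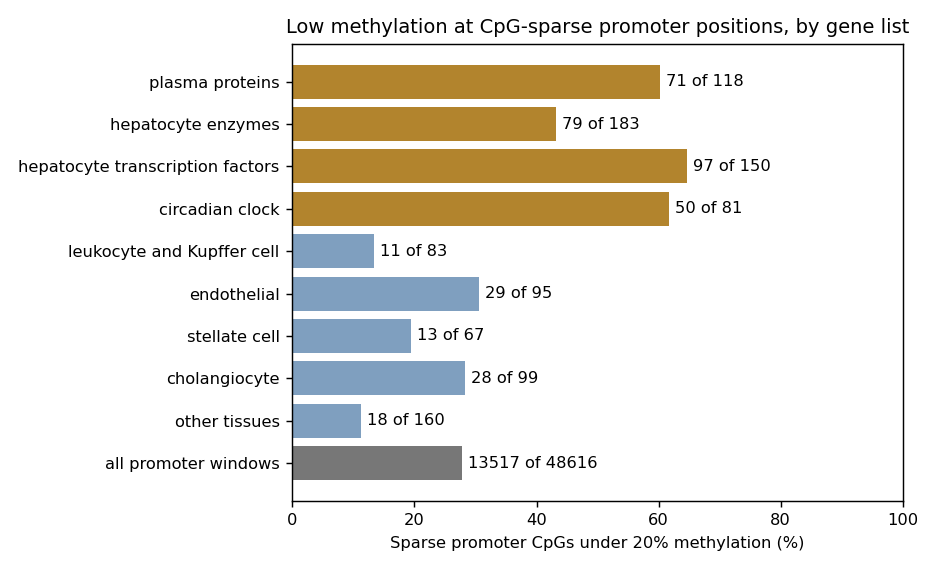
Percent of sparse CpGs in promoter windows that were members, for each gene list, with the number of members and of sparse CpGs beside each bar. The liver and clock lists lie between 43.2% and 64.7%, the lists of other cells between 11.2% and 30.5%, and all promoter windows at 27.8%.

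Among the transcription factor genes, *Nr1h3* (LXR alpha, a sensor of oxysterols) had all 10 of its sparse promoter CpGs among the members, *Rora* 10 of 11, *Onecut1* 8 of 9 and *Klf15*, a regulator of gluconeogenesis, 8 of 13. The 10 members of *Nr1h3* averaged 5.08%, 4.18%, 4.15% and 4.90% in the mid-aged mice and 3.22%, 2.31%, 4.01% and 4.18% in the young mice. Mid-aged 3 and young 4 met at the edge of these ranges. At *Klf15* the 8 members averaged 14.8%, 12.7%, 14.2% and 16.6% in the mid-aged mice and 4.12%, 6.16%, 7.03% and 9.99% in the young mice. Every mid-aged mouse was above every young mouse, but none of these members passed the test (lowest adjusted p = 0.431).

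*Hnf4a*, which encodes the nuclear receptor that maintains hepatocyte identity, had 4 members of 4 sparse CpGs. The mid-aged mice had 22.6%, 16.4%, 13% and 16.1% and the young mice 1.09%, 8.76%, 11.1% and 12.3%. They again did not overlap, and no member was called (lowest adjusted p = 0.214 in the quasi-binomial model). *Fli1* of the endothelial list did not overlap either (mid-aged 4.53% to 8.04%, young 0% to 2.94%). Among single members, 2.9% were higher in every mid-aged mouse, against 2.34% of all tested CpGs. The share of list genes without overlap was not counted. The 5 members of *Foxa1* printed above were among the lowest of the list, at 0.839% ± 0.155 (mid-aged) and 1.3% ± 1.68 (young). The other sparse CpGs in the promoter windows of *Foxa1* had a median of 39.8%. Of the 41 transcription factor genes, 30 had a tested sparse CpG in the window. Those of the 30 without any member were *Nr2f6*, *Mlxipl*, *Srebf2* and *Rxrb*, whose sparse promoter CpGs had medians from 79.2% to 98.0%.

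Of the plasma protein genes, *Fetub* (fetuin-B) had 8 members of 8, *Fgb* (the beta chain of fibrinogen) and *Ang* (angiogenin) 5 of 5 each, and *C4b* (complement) 5 of 6. *Fetub* was under 10% in each of the 8 mice, with 2.68%, 2.78%, 7.98% and 1.92% in the mid-aged and 4.28%, 5.56%, 2.94% and 8.44% in the young mice. *Fgb* was higher and more variable, with 18.1%, 18.6%, 22.6% and 16.9% in the mid-aged mice and 26.3%, 13.2%, 2.90% and 17.3% in the young mice. Both genes overlapped between the ages. *Apoe*, the apolipoprotein of remnant particles, had 4 members of 4 at 1.78% ± 0.696 and 1.9% ± 0.878.

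The enzyme genes were more mixed. *Cpt1a*, which controls the entry of fatty acids into mitochondria, had 8 members at 5.68% ± 1.03 (mid-aged) and 5.3% ± 1.52 (young). The other sparse CpGs in its promoter windows had a median of 96.0%. Windows of all transcripts of a gene were counted together, and the *Cpt1a* members ran from position 3321645 to 3333681. *Asl*, of the urea cycle, had 6 of 6 (3.11% ± 1.37 and 2.16% ± 1.36), and *Gnmt*, which consumes S-adenosylmethionine, had 6 of 7 (10.6% ± 4.59 and 6.78% ± 1.07). *Pklr*, the liver pyruvate kinase, had 6 of 6 with a wide spread, at 6.64%, 8.89%, 25.1% and 21.6% in the mid-aged mice against 4.86%, 5.13%, 2.94% and 11.5% in the young mice. The 2 highest mid-aged mice made most of that gap, the groups overlapped and the lowest adjusted p was 0.521. *Hpd* had 3 of 3 (16.1% ± 1.44 and 14.8% ± 6.55). Other enzyme genes had sparse promoter CpGs only at high levels, such as *Arg1* (urea cycle, median 83.3%), *Hal* (histidine breakdown, 97.5%) and *Adh1* (alcohol dehydrogenase, 95.2%).

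Clock genes included *Dbp*, an output regulator of the clock, with 10 members of 12 at 3.01% ± 1.06 and 1.74% ± 0.528, *Hlf*, of the same family, with 8 of 10 at 7.38% ± 2.97 and 3.91% ± 2.22, and *Cry2* with 5 of 5 at 3.46% ± 0.66 and 4.88% ± 2.26. *Tef* and *Bhlhe41* also had 5 of 5. *Csnk1e*, a kinase of the clock proteins, had 5 members among 19 sparse CpGs, and the rest had a median of 94.0%.

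Genes of the other cell types with members follow. In the leukocyte list they were *Ikzf1* (a lymphoid factor, 5 of 5 sparse CpGs, 10.7% ± 2.15 and 8.95% ± 3.76), *Coro1a*, *Lck* and *Irf8* (2 each), whereas markers such as *Adgre1* (85.1%) and *Tyrobp* (94.3%) had no member. In the endothelial list *Flt1*, *Cldn5* and *Gata2* had 4 members each, *Flt4* 3, *Kdr*, *Egfl7*, *Wnt2*, *Lmo2* and *Fli1* 2 each, and *Vwf*, *Sox7*, *Tal1* and *Ets1* 1 each. *Pecam1* (92.0%), *Stab1* (89.6%) and *Cdh5* (79.6%) had none. The 2 members of *Kdr* had 8.79%, 10.1%, 2.50% and 7.76% in the mid-aged mice and 2.60%, 2.14%, 4.90% and 2.99% in the young mice, which overlap.

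The stellate cell genes with members were *Col1a1* and *Col1a2*, the chains of type I collagen (4 each), and *Des*, *Pdgfra*, *Ecm1*, *Tcf21* and *Gdf2* (1 each). In the cholangiocyte list *Prom1* had 5 members of 14 sparse CpGs, *Krt19* and *Krt23*, keratins of the duct epithelium, 3 each, *Ggt1* 2, and *Spp1* and *Ehf* 1 each. Among genes of other tissues, *Gria1* (a glutamate receptor) had 5 members, *Mylpf* and *Syt1* 3 each, *Nphs1* 2, and *Ckm*, *Actn3*, *Cela1*, *Slc12a3* and *Mbp* 1 each. A low share of methylated reads at these genes does not show that they were expressed, and the part of other liver cells in the preparation was not tested.

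Short motifs of transcription factors were counted in the 202 bases around each CpG, on both strands, as plain letters. Within that window the C/EBP palindrome TTGCGCAA was found at 52 members (0.163%) and at 0.0167% of highly methylated sparse CpGs, against 0.0366% of all sparse CpGs. The HNF4A motif CAAAGTCCA was found at 170 members (0.534%) and at 0.179% of the highly methylated ones (0.251% of all sparse CpGs). GGGCGG, the GC box of SP and KLF factors, was found at 10.1% and 4.57% (5.43% of all). The first of these is 8 letters long and rare, so its ratio of 9.8 rests on few sites.

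The FOXA motif TGTTTAC was found at 3.3% of members and 1.97% of highly methylated sparse CpGs (2.36% of all sparse CpGs), and among CpGs more than 5000 bases from a start at 4.67% and 2.05%. The nuclear receptor motif AGGTCA was at 15.6% and 11.6% (12.8% of all), and at 18.4% and 11.3% far from starts. The CTCF core AGGNGGC was at 18.6% and 13.5% (14.5% of all). Other motifs were less frequent at members, among them the YY1 motif AAGATGGCG (0.107% and 0.455%, 0.358% of all), the TATA box TATAAA (5.94% and 9.13%, 8.3% of all), the p53 motif CATGTC (6.37% and 9.8%, 9.23% of all) and the ETS motif CCGGAAG (5.92% and 7.07%, 6.87% of all). Over all places together the AP-1 motif TGANTCA differed little (5.43% and 5.37%, 5.56% of all). More than 5000 bases from a start it was at 7.17% of members and 5.55% of highly methylated sparse CpGs, in promoter windows at 4.34% and 4.88%. Outside repeats the YY1 shares were 0.107% and 0.184%, a smaller gap. A match of letters is no proof of a bound factor, members had a GC content of 52.1% ± 6.07 (SD over CpGs) against 50.1% ± 5.95, and windows of neighbours overlap. The ETS motif contains CCGG, and 43% of members but 50.4% of highly methylated sparse CpGs lay in a CCGG themselves. GGGCGG, TTGCGCAA and AAGATGGCG contain a CpG, and the reference window held 3.93 other CpGs on average at members against 3.11. The part of these differences in the motif shares was not tested. The CCGG of MspI lay within 100 bases of 31859 of the 31860 members, as the method requires.

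The mean over the members was slightly higher in every mid-aged mouse than in any young mouse. Over all members the mean was 7.69%, 7.88%, 8.14% and 8.70% in the mid-aged mice and 7.63%, 7.52%, 7.34% and 7.50% in the young mice, that is 8.11% ± 0.441 against 7.5% ± 0.119 (SD, n = 4), a difference of 0.609 percentage points without overlap. The mean was higher in mid-aged mice at 17960 members (56.4%), lower at 13050 and equal at 850. It was higher in mid-aged mice at 56.2% of dense CpGs under 20% and at 53.8% of all tested CpGs. Promoter members differed by 0.455 points (6.35% ± 0.256 and 5.9% ± 0.0885), intron members by 0.727 (9.43% ± 0.631 and 8.7% ± 0.199) and members between genes by 0.692 (9.32% ± 0.516 and 8.62% ± 0.252). The groups did not overlap in promoter windows or in exons. Intron members met at 8.85% in mid-aged 1 and young 1. Between genes the groups overlapped, with mid-aged 1 at 8.69% and young 1 at 8.97%. Members far from starts and from dense, low CpGs overlapped as well (mid-aged 1 9.78%, young 1 10.3%). The same small excess was present elsewhere, at 0.246 points over dense CpGs under 20% (2.05% and 1.81%) and 0.33 points over all tested CpGs. No p is given for these means because the members were selected by their level.

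When methylation was weighted by reads, the difference was 0.31 points and the groups overlapped, and with at least 10 reads in every mouse it was 0.598 points without overlap. The share of members with no methylated read was 33.2%, 16.1%, 17.9% and 18.5% in mid-aged 1 to 4 and 43.4%, 33.2%, 26.3% and 22.9% in young 1 to 4. Mid-aged 1, with the fewest reads at members, had the same share as young 2. The part of depth in the difference was not tested.

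**Figure D4:**
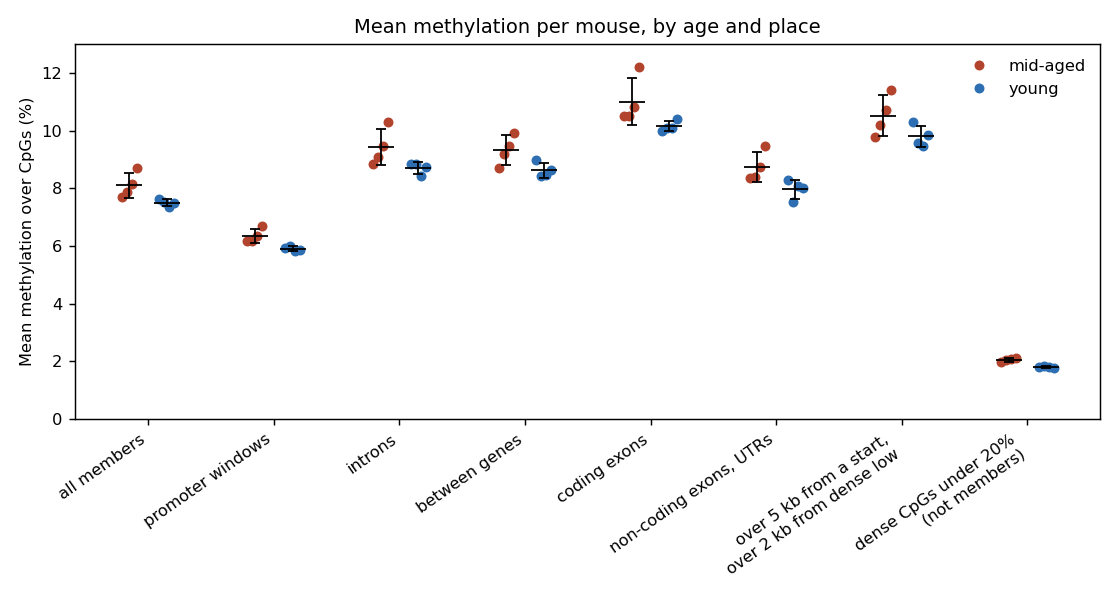
Mean methylation (percent) per mouse over all members, over members by place, and over dense CpGs under 20% that are not members. Points are mice, with mid-aged on the left and young on the right of each pair, and bars give the group mean ± SD. Over all members, mid-aged mice lie between 7.69% and 8.70% and young mice between 7.34% and 7.63%.

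Few single members differed by age. The methylated and unmethylated reads of each tested CpG were fitted with a quasi-binomial model. A CpG was called when the p adjusted over all 874644 CpGs (Benjamini-Hochberg) was under 0.05, the group means differed by at least 5 percentage points and the variance within both groups was small. Of the members, 22 were called (0.0691%), 18 lower and 4 higher in mid-aged mice. The background was 0.166% of all tested CpGs, with 0.063% higher and 0.103% lower. The share was 0.677% for sparse CpGs between 20% and 80%, 0.0231% for sparse CpGs at 80% or more and 0.0269% for dense CpGs under 20%. Members lay below the first of these and above the other 2. All these classes were set by the mean over the same 8 mice that the test compared. That choice bounds the difference a member can show, so the counts and their order are partly set by it. The 10 largest losses had young means from 22.3% to 31.5%, over the limit of 20%. Of the gains, *Cdk2ap1*, *Gpam* and *Ttc39b* had mid-aged means from 24.5% to 28.7%, and *Nab1* 16.1%.

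Counting only whether the groups overlapped, 924 members (2.9%) were higher in every mid-aged than in every young mouse and 316 (0.992%) lower, against backgrounds of 2.34% and 1.23%. An unadjusted p under 0.05 was reached by 3167 members (9.94%), against 9.14% of all tested CpGs. The calls depended strongly on single mice. Leaving out mid-aged 1, 2, 3 or 4 left 6, 3, 3 and 3 calls, and without young 1 there were 58, without young 2 24, of which only 8 were among the 22, without young 3 18 and without young 4 39. limma on M values called 1 member, none of the 22. Of the 14 calls described next, 5, 3, 3 and 2 remained without mid-aged 1, 2, 3 and 4, and 13, 7, 10 and 10 without young 1, 2, 3 and 4.

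Of the 18 losses, the site in intron 2 of *Akt1*, a kinase of insulin signalling, had the lowest adjusted p (0.00011). This CpG at chr12:112670818 lies in an MspI site with no other CpG in its window. The mid-aged mice had 7.95%, 3.49%, 6.45% and 8.62% and the young mice 35.8%, 35.4%, 34.4% and 20.3%, at 137 to 440 reads each, so that the mean fell by 24.8 points without overlap. The only other CpG tested within 500 bases had a lower mean in mid-aged mice as well, with a difference of -27.5 points, but was not called. The call at *Akt1* remained when any single mouse was left out.

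*Acin1*, which encodes a splicing-associated nuclear protein, had a site in intron 1, 650 bases from a start, that remained under each of these omissions too. It had 7.32%, 6.87%, 9.67% and 9.19% in the mid-aged mice and 27.4%, 26.6%, 22.0% and 21.2% in the young mice (adjusted p = 0.00338). Within each age these values were close together. *Lncppara*, a long non-coding RNA gene, had a site in intron 1 with means of 9.81% ± 1.86 (mid-aged) and 28.2% ± 10.9 (young; adjusted p = 0.0243). All 4 other CpGs tested within 500 bases were lower in mid-aged mice and 3 of them were called. 1 of the 4 was itself a member.

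*Clk3*, a kinase of splicing factors, had the largest loss of the 22 calls, where the mean fell by 26.4 points, but young 2 at 52.8% and young 1 at 17.9% were far apart (adjusted p = 0.0465). *Adamts1*, a secreted protease, had 0.00%, 1.03%, 6.00% and 0.00% in the mid-aged mice and 31.1%, 23.9%, 24.3% and 9.76% in the young mice in a promoter window (adjusted p = 0.0431). *Gm45299*, *Col23a1*, *Gm13055*, *Garem1* and *Kank2* each fell by 16.2 to 18.5 points, with mid-aged means from 7.32% to 9.45% and young means from 23.8% to 28.0%. None of these 5 overlapped between the ages. The other called losses were near or in *Tnik*, *Gm34045*, *Gm49645*, *Gnptab*, *Gse1*, *Hspb1*, *Rhob* and *Tm9sf3*, where means fell by 8.02 to 14.4 points. The sites at *Rhob*, a small GTPase, and *Tm9sf3* overlapped between the groups.

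Of the 4 gains, the site in *Cdk2ap1*, an inhibitor of a cell cycle kinase, was at 31.6%, 28.2%, 27.7% and 26.2% in the mid-aged mice and at 0.00%, 4.76%, 0.00% and 3.33% in the young mice (adjusted p = 0.0445). It rested on only 15 to 47 reads per mouse, and its call was lost when any single mouse was left out. Between genes, 38316 bases from the start of *Gpam*, the acyltransferase that opens triglyceride synthesis, a site had 28.7% ± 6.19 and 8.07% ± 3.75 (adjusted p = 0.041), and all 10 other CpGs tested within 500 bases were higher in mid-aged mice, none of them called.

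*Ttc39b*, which regulates LXR protein, had the gain with most company. Its site lay 125 bases from a start, with 20.8%, 22.1%, 28.7% and 26.5% in the mid-aged mice and 8.79%, 2.68%, 11.2% and 7.50% in the young mice (adjusted p = 0.00907). All 13 other CpGs tested within 500 bases were higher in mid-aged mice and 4 of them were called, with a median difference of 20.5 points and a median methylation of 41.5%, against a mean of 16% over the 8 mice at the member itself. Its call was lost without mid-aged 3 (adjusted p = 0.0642 in the quasi-binomial model) or mid-aged 4 (0.0629). The site at *Nab1*, a corepressor of EGR factors, lay ahead of the start, at position -1121 from it, at 16.1% ± 3.04 and 3.73% ± 2.75 (adjusted p = 0.027). By place, 9 of the 22 calls were in promoter windows, 7 in introns, 4 between genes, 2 in UTRs or non-coding exons and 0 in coding exons. Promoter windows held 42.4% of all members and coding exons 2.02%. Of the 642 members in coding exons limma also called 0, and 75 had an unadjusted p under 0.05 in the quasi-binomial model, against 9.94% of all members. A further 3 members passed the adjusted p with differences under 5 points, in *Fnip2*, near *Tm9sf3* and in *Sgcz*.

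Over the 23662 members with at least 10 reads in every mouse the median SD between the 8 mice was 4.23 points, and 1684 had an SD over 10 points. The mouse farthest from the median was young 1 at 567 of these, young 2 at 351 and mid-aged 1 at 216. The 5 members with the widest spread were each set apart mainly by a single mouse, and they are given as a description. In intron 1 of *Gm20388* young 1 had 81.2% (interval 64.7% to 91.1%, 32 reads) and the other mice at most 20.9%. At a site 131872 bases from the nearest start, of *Gm22773*, young 1 had 72.7% (43.4% to 90.3%, 11 reads) and in intron 2 of *Plbd1* 70.0% (39.7% to 89.2%, 10 reads). In *Isoc2b* mid-aged 1 had 76.9% (49.7% to 91.8%, 13 reads), and upstream of *Acy3* young 2 had 71.4% (45.4% to 88.3%, 14 reads) and young 1 33.3%.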

How the data were processed

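RRBS libraries of hepatocytes from 8 female C57Bl6/J mice, 4 mid-aged and 4 young, were analysed. The authors processed the reads against mm10 and deposited 1 table per mouse that gives, for each CpG and strand, the methylation in percent and the count of reads. The submitters' processing notes name Picard 1.115, SAMtools 1.3, BWA 0.6.2, FastQC and Trim Galore 0.4.2, with the methylation caller not given in the sources used here. Percent times count gave the methylated reads, and each entry came out whole within the rounding of its percentage. Both strands were summed. Chromosomes 1 to 19 were kept, with 97.2% to 97.5% of reads, so genes on the X chromosome were not analysed here.

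The members and the gene, motif and locus lists were chosen with earlier results of these data known. Named CpGs were the called members with at least 10 reads in every mouse, up to 10 gains and 10 losses, 1 per locus. Named loci were the 8 promoter and 8 distal loci with most members. Named list genes were the 3 with most members per list and every gene with a member for other cell types, plus the 5 most variable members and 3 CpGs to either side of the 20% threshold. Other genes were named after their values were seen, and a few items that the rule names are not reported here. Starts, exons and introns came from GENCODE vM21, and sequence from GRCm38.p6 as RefSeq gives it. Every transcript gave a promoter window.

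Each CpG was fitted with a quasi-binomial logistic model with age as the only term. The Pearson dispersion was moderated with squeezeVar of limma 3.58.1 in R 4.3.3, leaving out CpGs without dispersion, and was not allowed below 1. p-values were adjusted over all 874644 CpGs. A call also needed group means at least 5 points apart and, in both groups, variance below 0.05 on the scale of 0 to 1, as in the study's methods, which used limma within RnBeads. The fit was tested on simulated data. The p-values set the age difference against a dispersion between mice that was pooled over both groups. That dispersion was drawn towards a value common to all CpGs, with a prior of 11.4 degrees of freedom. Alternatives were limma on M values, at least 10 reads, a replicate block, other minimum differences, other promoter and motif windows, and leaving out each mouse. Python 3.11.15, pandas 2.3.3, numpy 2.4.6 and pysam 0.24.0 were used.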

Additional observations from a re-analysis of the deposited data

Results flagged for a closer look

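In 142 groups of 4 mice behind the values named above, 16 held a mouse whose gap to the nearest of the other 3 exceeded the 95% critical value of Dixon's test. Chance gives about 1 in 20 groups, and the most variable members were chosen for such mice.

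Among CpGs called by age, young 4 had 20.3% at *Akt1* where the other young mice had 34.4% to 35.8%, and young 2 had 37.1% at *Gm45299* against 24.5% to 25.6%. At *Garem1* young 2 had 19.2% against 27.9% to 29.4%, and at *Kank2* young 1 had 12.5% against 26.9% to 28.6%. Each of these values was still outside the range of the mid-aged mice.

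Among the loci, young 3 had 12.6% near *4930573C15Rik* against 4.54% to 5.54%. Mid-aged 4 had 7.25% near *AC127690.1* against 13.5% to 14.2%, and mid-aged 2 had 9.32% near *Gbx2* against 15.3% to 16.5%. Of the most variable members, the 72.7% of young 1 near *Gm22773*, the 76.9% of mid-aged 1 in *Isoc2b* and the 70% of young 1 in *Plbd1* passed the same limit.

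In promoter windows, young 1 had 12.1% at *Krt23* against 4.49% to 5.66%, young 2 had 7.24% at *Hlf* against 2.67% to 2.88% and 7.62% at *Ang* against 0% to 1.25%. Young 3 had 7.55% at *Cpt1a* against 4.38% to 4.89%, mid-aged 3 had 7.98% at *Fetub* against 1.92% to 2.78%, and young 4 had 4.65% at the single member of *Pdgfra*, where the others had 0%.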

How the results depend on the processing

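The count of members, 31860, stayed between 31748 and 31968 when single mice were left out, was 31902 with a mean weighted by reads and 23662 with at least 10 reads. Only 10340 had reads on both strands in the 8 mice together. The difference of the mean by age ran from 0.409 to 0.747 points when single mice were left out. Since the groups did not overlap, leaving out a mouse could not reverse it. It also kept its direction when weighted by reads and with at least 10 reads. The share in promoters was 31.9%, 36.4% and 43.1% with 500 bases to either side of a start, with protein-coding genes only and with at least 10 reads.

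The count of calls ran from 3 to 58 when single mice were left out, 25 with at least 10 reads, 19 with a minimum difference of 10 points and 25 with none. It was 1 with limma on M values, which called 246 CpGs in all. The mid-aged and young samples share replicate numbers 1 to 4. With the replicate number as a block, the quasi-binomial model called 0 members and 0 CpGs in all, while 1723 members had an unadjusted p under 0.05. The numbers were taken as labels of different mice and not as pairs. The correlation of deviations over members ran from -0.00516 to 0.0149 for same-numbered mice and from -0.0167 to 0.0158 for differently numbered mice. Counting error lowers such correlations, so they cannot decide whether the numbers mark pairs. The 14 named CpGs did not overlap between the ages, so leaving out a mouse could not reverse their direction. The other alternatives used the same group means. All 14 kept the call with at least 10 reads and lost it under limma and the block. Their differences all exceeded the other minimum differences, so those could not change a call. *Akt1* and *Acin1* kept the call without each mouse. The cause of the lost calls was not tested.

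With motifs counted within 50 bases in place of 100, the ratio of the share at members to that at highly methylated sparse CpGs moved from 0.837 to 0.715 for ETS, from 2.22 to 1.94 for SP/KLF, from 0.884 to 0.929 for NFY, from 1.09 to 1.19 for the E-box, from 1.67 to 1.92 for FOXA, from 1.34 to 1.47 for AGGTCA, from 1.01 to 1.07 for AP-1, from 0.754 to 0.641 for NRF1, from 0.65 to 0.705 for TATA, from 1 to 0.93 for the MspI site and from 1.08 to 1.17 for HNF1. Depth limits the values of mid-aged 1 and young 1 most, with medians of 27 and 34 reads per member.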
